A study of Rattus norvegicus with 12 samples.

Results

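Lipoprotein lipase and its partners, the genes through which the heart takes fatty acids from circulating fat, were followed in hearts of young adult rats that differed in their dam and in their own diet. The genes were chosen by name, as rows of the deposited expression table whose gene symbol matched a list of 8. Of these, 7 had a row among the 17322 gene models: Lpl, Gpihbp1, Angptl4, Cd36, Slc27a1, Fabp3 and Vldlr. Lmf1, which encodes a chaperone that folds the lipase, was not analysed here. All 7 passed the filter on low values in the pool of 12 libraries and were tested among 12983 models.

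The heart draws much of its fuel from triglycerides carried by lipoproteins. Cardiomyocytes make lipoprotein lipase (Lpl), and GPIHBP1, a protein of the capillary endothelium, carries the enzyme across the cell to the vessel lumen and holds it there, where it frees fatty acids. ANGPTL4 is a secreted inhibitor that inactivates the enzyme, CD36 and FATP1 (Slc27a1) help fatty acids across membranes, FABP3 carries them in the cytosol of the muscle cell, and the VLDL receptor binds whole lipoproteins.

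Sprague Dawley rats, an outbred stock, supplied 12 whole hearts, 1 per library, in 4 groups of 3. Dams called GDM, for gestational diabetes mellitus, ate a high fat and sucrose (HFS) diet from before mating until their pups were weaned. Lean dams had a low fat (LF) diet. Their young were weaned at 3 weeks, put at random on LF or HFS, and their hearts taken at 15 weeks. The groups are written as dam, then own diet: Lean-LF and Lean-HFS for young of Lean dams, GDM-LF and GDM-HFS for those of GDM dams. GDM here is a state brought on by the dam's diet, so the dam's diet and her diabetes cannot be told apart. Shared litters are not named in the sources used here, and p-values therefore measure only the spread between these libraries, which may be partly that of litters. The comparisons asked what the dam and the own diet changed and whether one depended on the other.

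Values are scaled reads of a gene model: whole reads times a constant for each library, as deposited, divided by a factor that aligns the bulk of genes. They are not divided by gene length, so levels are compared between libraries and never between genes. Outside ribosomal RNA models, a library held 9172734 to 14418970 reads, with group means of 12967862 (GDM-HFS), 12087575 (GDM-LF), 10563454 (Lean-LF) and 10347952 (Lean-HFS). The GDM groups thus held more reads outside these models. Over all models a library held 22661235 (Lean-LF 2) to 31258255 (Lean-LF 1) reads. Lean-LF 1 was lowest outside ribosomal RNA models (9172734). GDM-HFS 1, highest outside them (14418970), held 26678794 over all models, so libraries differed in their share of ribosomal RNA. The summed level of 12 cardiomyocyte markers was 165190 to 250223, lowest in Lean-HFS 2, so markers of the labelled tissue were abundant in every library. GDM-HFS 1 and GDM-LF 3 had the highest summed level of 8 atrial markers (19558 and 12015, against 1311 to 6644 in the other 10 libraries), and Lean-HFS 2 the highest sum of 12 macrophage markers (1762, against 813 to 1056). In whole tissue, fewer cells of a type and less RNA per cell cannot be told apart.

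RefSeq's promoter table, on assembly GRCr8, held an entry for 6 of the 8 genes: Angptl4, Lmf1, Cd36, Vldlr, Fabp3 and Slc27a1. The 250 bases before the annotated start are shown for Angptl4, Cd36 and Slc27a1, whose levels ran together over the 12 libraries (Pearson r of 0.721 to 0.825), and for Fabp3, whose level ran with that of Lpl (0.832). They lie at chr7:15258682-15258931 on the minus strand (Angptl4), chr4:18246332-18246581 on the plus strand (Cd36), chr16:18312717-18312966 on the plus strand (Slc27a1) and chr5:147935875-147936124 on the plus strand (Fabp3), and each is written 5′ to 3′ on the gene's strand with motif matches in capitals.
Angptl4: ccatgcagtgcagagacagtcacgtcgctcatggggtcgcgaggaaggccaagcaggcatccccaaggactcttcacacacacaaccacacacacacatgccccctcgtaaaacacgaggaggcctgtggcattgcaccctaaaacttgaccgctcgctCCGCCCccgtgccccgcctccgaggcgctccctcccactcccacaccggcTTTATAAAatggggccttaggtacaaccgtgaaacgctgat
Cd36: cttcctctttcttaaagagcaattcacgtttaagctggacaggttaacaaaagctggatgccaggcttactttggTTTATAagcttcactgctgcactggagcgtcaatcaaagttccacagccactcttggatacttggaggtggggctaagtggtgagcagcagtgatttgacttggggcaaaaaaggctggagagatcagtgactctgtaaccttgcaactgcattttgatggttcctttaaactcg
Slc27a1: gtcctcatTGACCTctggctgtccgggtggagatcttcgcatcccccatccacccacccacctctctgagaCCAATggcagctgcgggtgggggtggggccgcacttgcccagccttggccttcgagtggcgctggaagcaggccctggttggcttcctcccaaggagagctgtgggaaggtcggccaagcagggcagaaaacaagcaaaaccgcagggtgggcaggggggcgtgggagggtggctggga
Fabp3: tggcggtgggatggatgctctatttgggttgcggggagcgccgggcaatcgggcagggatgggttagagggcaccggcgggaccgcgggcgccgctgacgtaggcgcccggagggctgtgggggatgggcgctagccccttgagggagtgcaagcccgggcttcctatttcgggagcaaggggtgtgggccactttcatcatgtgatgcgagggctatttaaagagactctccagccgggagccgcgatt

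Motifs were searched on both strands of these 250-base windows, with the share of all 33469 such windows in the table that hold each. The AGGTCA element of nuclear receptors (14.1% of windows) was found in Slc27a1, at position -242 from the start on the minus strand, and in none of the other 5. Its direct repeat, with any 1 base between both copies, which is the consensus PPAR element (0.0508% of windows), was in none of the 6, and any match to it would also hold the shorter element. TATAAA (12.9%) stood in Angptl4 at -41 and -39, as overlapping matches on opposite strands, and in Cd36 at -175 on the minus strand only. CCAAT (34.0%) stood in Slc27a1 at -179 on the plus strand. GGGCGG (30.5%) had 1 match in Angptl4 (-91, minus strand), 2 in Lmf1 and 3 in Vldlr, and CACGTG (5.59%) had none. Fabp3 had no match to any of these 6 motifs. A match is a string of letters, not a measured site.

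Lpl, the enzyme itself, had lower levels in HFS than in LF hearts, by a ratio of 0.827 and short of the test's threshold. On Rnor_6.0 its model (NM_012598) spans chr16 22537687 to 22561487 on the minus strand, exons and introns together. The values were 10483, 10914 and 10105 in Lean-LF 1, 2 and 3, and 9065, 7109 and 9292 in Lean-HFS. They were 10839, 10473 and 7600 in GDM-LF, and 7653, 8100 and 8772 in GDM-HFS. Every Lean-HFS heart lay below every Lean-LF heart, whereas among GDM offspring GDM-LF 3 was below all 3 GDM-HFS hearts. By group mean the order was Lean-LF (10501 ± 405, SD, n = 3), GDM-LF (9638 ± 1774), Lean-HFS (8488 ± 1200) and GDM-HFS (8175 ± 563), and each neighbour in that order overlapped the next. Averaged over dams the log2 difference between HFS and LF was -0.27 ± 0.11 (SE), with means of 8332 and 10069 (limma, Benjamini-Hochberg adjusted p = 0.576). It was -0.32 ± 0.15 among Lean and -0.22 ± 0.15 among GDM offspring, and their difference was 0.09 ± 0.21 (limma adjusted p = 0.999). Averaged over diets, GDM against Lean gave -0.09 ± 0.11 (limma adjusted p = 0.791). Without GDM-LF 3 the diet difference was -0.35 (limma adjusted p = 0.227), without Lean-HFS 2 it was -0.21, and under quantile normalization -0.09. Among Lean offspring it was -0.39 leaving out Lean-HFS 3 and -0.19 leaving out Lean-HFS 2, and it ran from -0.38 (without GDM-LF 3) to -0.13 (without GDM-LF 1) among GDM offspring.

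Gpihbp1, the endothelial anchor of the enzyme, was the gene of the 7 with the smallest p for diet and ranked 11 of 12983 tested models, yet it did not pass the adjustment. Its model (NM_001130547) spans chr7 116632496 to 116635543 on the plus strand. The values were 19.97, 46.5 and 25.9 in Lean-LF 1, 2 and 3, and 78.2, 66.1 and 89.1 in Lean-HFS. They were 59.996, 29.3 and 17.2 in GDM-LF, and 49.9, 76.0 and 66.1 in GDM-HFS. All 3 Lean-HFS hearts were above all 3 Lean-LF hearts, and across both dams GDM-LF 1 was the LF heart that reached into the HFS range. The order of the means was Lean-HFS (77.8 ± 11.5, SD, n = 3), GDM-HFS (64.0 ± 13.2), GDM-LF (35.5 ± 22.1) and Lean-LF (30.8 ± 13.9), and the ranges of neighbours overlapped at every step. Over both dams the mean was 70.9 in HFS and 33.1 in LF hearts, a ratio of 2.14. The log2 difference was 1.22 ± 0.27 (SE, 95% interval 0.64 to 1.79), higher in HFS (limma adjusted p = 0.389). DESeq2 on the recovered reads gave the lowest adjusted p of any other setting with all libraries, 0.111. Within dams the difference was 1.42 ± 0.38 among Lean and 1.02 ± 0.38 among GDM offspring (limma adjusted p = 0.881 and 0.860). The GDM difference was 0.59 without GDM-LF 3 and 1.49 without GDM-LF 1, and the Lean difference ran from 1.15 without Lean-LF 1 to 1.76 without Lean-LF 2. The interaction was -0.40 ± 0.53 (limma adjusted p = 0.999), and GDM against Lean was -0.09 ± 0.27 (limma adjusted p = 0.927). Each library gave the model 72 to 390 reads. Leaving out any 1 library kept the averaged difference between 1.00 (without GDM-LF 3) and 1.45 (without GDM-LF 1).

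Set against its enzyme in the same library, the log2 level of Gpihbp1 minus that of Lpl was -8.38 ± 0.58 in the 6 LF hearts (range -9.04 to -7.50) and -6.89 ± 0.22 in the 6 HFS hearts (range -7.26 to -6.70). The 2 diets did not overlap in this difference, though they did in either gene alone. Lpl was lower and Gpihbp1 higher in HFS hearts, so subtracting Lpl widens the gap by construction. Of single tested models 0.347% did not overlap, which is no background for a difference of 2 genes. The share of gene pairs whose difference separates the diets was not computed, so the separation has no background to be read against. Gpihbp1 relative to the mean log2 level of 15 endothelial markers was -2.97 ± 0.63 in LF and -1.74 ± 0.25 in HFS hearts, with ranges of -3.69 to -2.09 and -2.13 to -1.47. These are descriptions of differences between log2 levels, without a test.

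Angptl4, the inhibitor, was also at higher levels in HFS hearts and did not pass. Its model (NM_199115) spans chr7 18627814 to 18634043 on the minus strand. The values were 7.49, 23.4 and 4.63 in Lean-LF 1, 2 and 3, and 32.0, 9.78 and 25.3 in Lean-HFS. They were 23.1, 16.4 and 9.61 in GDM-LF, and 33.4, 29.2 and 32.3 in GDM-HFS. The 3 GDM-HFS hearts were close together and above all GDM-LF hearts, while the other groups were widely spread. In order the means were GDM-HFS (31.7 ± 2.18, SD, n = 3), Lean-HFS (22.3 ± 11.4), GDM-LF (16.3 ± 6.73) and Lean-LF (11.9 ± 10.1), with overlap between every pair of neighbours. The mean was 27.0 in HFS and 14.1 in LF hearts. The log2 difference was 1.06 ± 0.38 (SE, 95% interval 0.25 to 1.87; limma adjusted p = 0.514). It was 1.08 ± 0.53 among Lean and 1.04 ± 0.53 among GDM offspring (limma adjusted p = 0.881 and 0.863). The size of both moved with single libraries. The Lean difference ran from 0.58 without Lean-LF 3 to 1.74 without Lean-LF 2, and the GDM difference from 0.70 without GDM-LF 3 to 1.33 without GDM-LF 1. GDM against Lean gave 0.69 ± 0.38 (limma adjusted p = 0.513), and ran from 0.43 without Lean-HFS 2 to 1.02 without Lean-LF 2. The model held 20 to 201 reads in a library, the fewest of the 7, so counting error alone is large at its low end. Over all models 69.8% of low recovered read counts were even. Both reads of a pair may thus be counted, and independent counts may be fewer. The diet difference ran from 0.81 without Lean-LF 3 to 1.39 without Lean-LF 2, and was 1.31 without Lean-HFS 2. Relative to Lpl, the log2 level of Angptl4 was -9.71 ± 0.90 in LF and -8.37 ± 0.60 in HFS hearts, with overlapping ranges.

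Cd36, the main fatty acid translocase of muscle, differed by less. The values were 1208, 1426 and 1173 in Lean-LF 1, 2 and 3, and 1607, 1346 and 1524 in Lean-HFS. They were 1606, 1422 and 1155 in GDM-LF, and 1326, 1648 and 1570 in GDM-HFS. The groups overlapped throughout, and in the order GDM-HFS (1515 ± 168, SD, n = 3), Lean-HFS (1493 ± 133), GDM-LF (1395 ± 227) and Lean-LF (1269 ± 137) each mean was within an SD or so of its neighbour. HFS against LF gave a log2 difference of 0.18 ± 0.09 (limma adjusted p = 0.642), and GDM against Lean gave 0.07 ± 0.09 (limma adjusted p = 0.805). It was 0.24 ± 0.13 among Lean and 0.13 ± 0.13 among GDM offspring (limma adjusted p = 0.881 and 0.942). The averaged diet difference ran from 0.12 without GDM-LF 3 to 0.24 without GDM-LF 1. The model (NM_031561, chr4 14039977 to 14241271, plus strand) overlaps that of RGD1565355, a Cd36-like gene that held 63.4 to 71.4% of its value in every library with a Pearson r of 0.966 over the 12. Reads of overlapping models cannot be told apart here, so the level of Cd36 by itself is uncertain.

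Slc27a1 and Fabp3, which act after the fatty acid has left the vessel, did not pass the test for diet or dam. Slc27a1 encodes FATP1, a transport protein that also activates fatty acids with coenzyme A (NM_053580, chr16 19999112 to 20016191, plus strand). Its values were 199, 202 and 188 in Lean-LF 1, 2 and 3, and 271, 163 and 245 in Lean-HFS, so Lean-HFS held both the highest and the lowest heart. They were 238, 224 and 192 in GDM-LF, and 229, 239 and 221 in GDM-HFS. HFS against LF gave a log2 difference of 0.13 ± 0.11 (95% interval -0.10 to 0.35; limma adjusted p = 0.785), and GDM against Lean gave 0.10 ± 0.11 (limma adjusted p = 0.768). Without Lean-HFS 2 the diet difference was 0.24 ± 0.07 (limma adjusted p = 0.414), and without Lean-HFS 1 it was 0.054. The group means lay in the order GDM-HFS (229 ± 9.41), Lean-HFS (226 ± 56.1), GDM-LF (218 ± 23.8) and Lean-LF (196 ± 7.56).

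Fabp3 encodes the fatty acid binding protein of heart muscle (NM_024162, chr5 148528869 to 148535597, plus strand). Its values were 4294, 4710 and 4523 in Lean-LF 1, 2 and 3, and 4354, 2883 and 4975 in Lean-HFS. They were 5289, 4525 and 3390 in GDM-LF, and 3367, 4423 and 4437 in GDM-HFS. The 3 lowest hearts, Lean-HFS 2, GDM-HFS 1 and GDM-LF 3, came from 3 different groups, and they were also the 3 lowest for Lpl. The group means were 4509 ± 209 (Lean-LF), 4401 ± 956 (GDM-LF), 4076 ± 614 (GDM-HFS) and 4071 ± 1074 (Lean-HFS), each within an SD of the next. HFS against LF gave -0.14 ± 0.14 (95% interval -0.44 to 0.16; limma adjusted p = 0.816), and GDM against Lean gave -0.02 ± 0.14 (limma adjusted p = 0.978). Without GDM-LF 3 the diet difference was -0.23, and without Lean-HFS 2 it was -0.026. Zcchc17 overlaps the model, at 6.97% of its value, so a small part of the reads may be shared.

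Vldlr, the receptor that binds triglyceride-rich lipoproteins near the site of the lipase, was the steadiest of the 7, with an SD of 6.30% of its mean over the 12 hearts. Its model (NM_013155) spans chr1 245237736 to 245269205 on the plus strand. The values were 476, 459 and 468 in Lean-LF 1, 2 and 3, and 535, 413 and 458 in Lean-HFS. They were 445, 476 and 472 in GDM-LF, and 434, 462 and 470 in GDM-HFS. Lean-HFS 1 was the highest and Lean-HFS 2 the lowest, and the 4 group means lay between 455 and 469. HFS against LF gave -0.02 ± 0.06 (95% interval -0.15 to 0.12) and GDM against Lean gave -0.02 ± 0.06 (95% interval -0.16 to 0.11), on the log2 scale. By comparison, the SD was 47.0% of the mean for Gpihbp1, 51.3% for Angptl4 and 12.5 to 16.5% for the other 4.

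**Figure D1:**
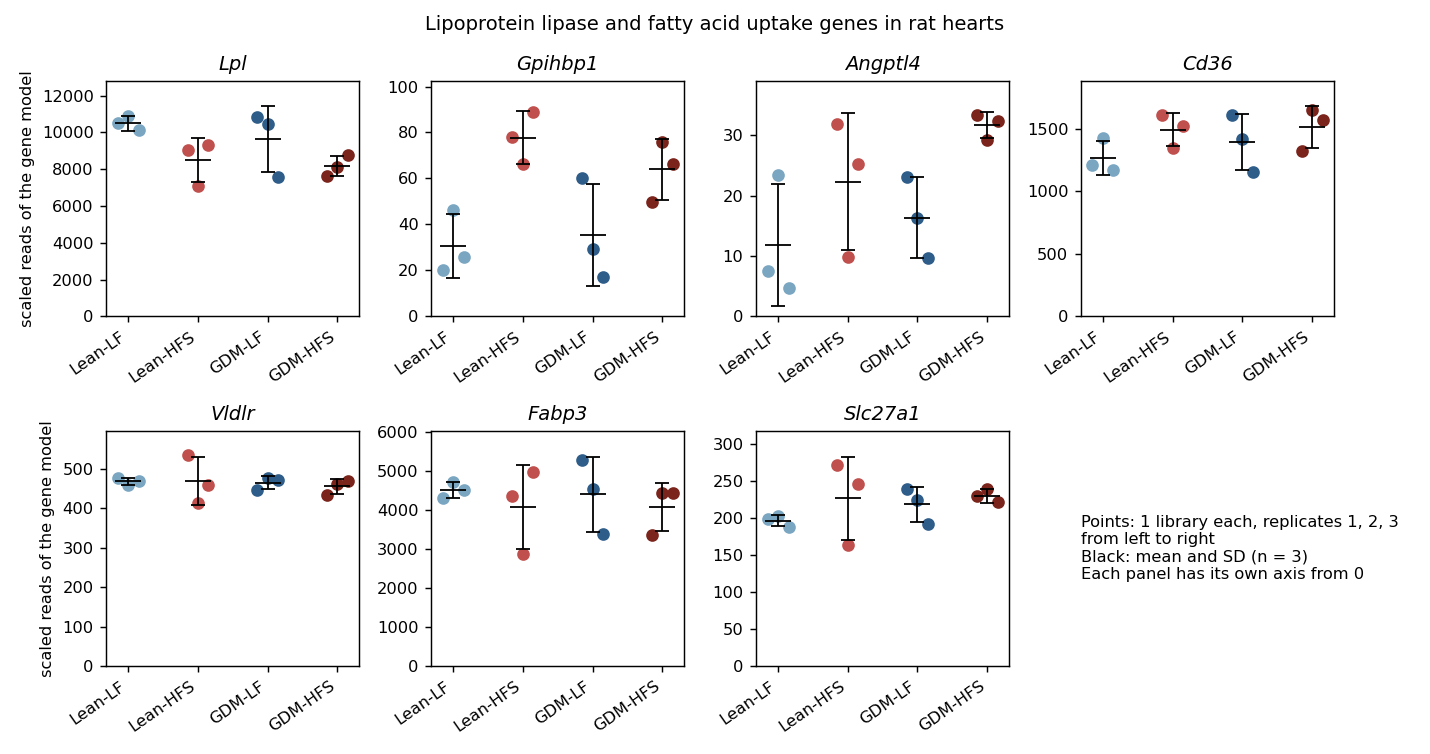
Scaled reads of each of the 7 genes (vertical axis, from 0, a separate scale per panel) in the 12 libraries by group (horizontal axis). Points are libraries and black bars the mean and SD of 3. Gpihbp1 runs from 17.2 to 59.996 in LF and from 49.9 to 89.1 in HFS hearts, and Vldlr from 413 to 535.

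Over the 7 contrasts, limma called none of the 7 genes, and neither edgeR nor DESeq2 on the recovered reads did so in any of them. For HFS against LF averaged over dams limma also called 0 of all 12983 models (0%), edgeR called 0 and DESeq2 31. At an unadjusted p under 0.05 there were 1028 models (7.92%), among them 3 of the 7 genes, Gpihbp1, Angptl4 and Lpl. For GDM against Lean averaged over diets limma called 8 models (0.0616%), with 1459 (11.2%) at an unadjusted p under 0.05 and 0 of the 7 genes among them. The interaction had 0 calls and 391 models (3.01%) at that unadjusted level, with 0 of the 7. Within Lean offspring the diet contrast had 0 calls and 676 models at the unadjusted level (5.21%), Gpihbp1 being the 1 of the 7. Within GDM offspring it had 0 calls and 723 models (5.57%), again with Gpihbp1 alone of the 7. GDM-LF against Lean-LF had 4 calls (0.0308%) and 649 models at the unadjusted level (5%), and GDM-HFS against Lean-HFS had 2 calls (0.0154%) and 1252 models (9.64%), both with 0 of the 7. The contrasts share libraries, so they are not separate evidence.

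Genes can also be counted by complete separation of the libraries of a pair of groups. Between Lean-HFS and Lean-LF, 2 of the 7 genes did not overlap (Gpihbp1 higher, Lpl lower), where 10% of all tested models did not. Between GDM-HFS and GDM-LF it was 1 of 7 (Angptl4, higher), against 11.4% of all models. Between GDM-LF and Lean-LF 0 of 7 separated (11% of all), and between GDM-HFS and Lean-HFS also 0 (13.8% of all). Over all 6 HFS against all 6 LF hearts 0 of 7 separated (0.347% of all), and over 6 GDM against 6 Lean hearts 0 (0.793% of all).

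**Figure D2:**
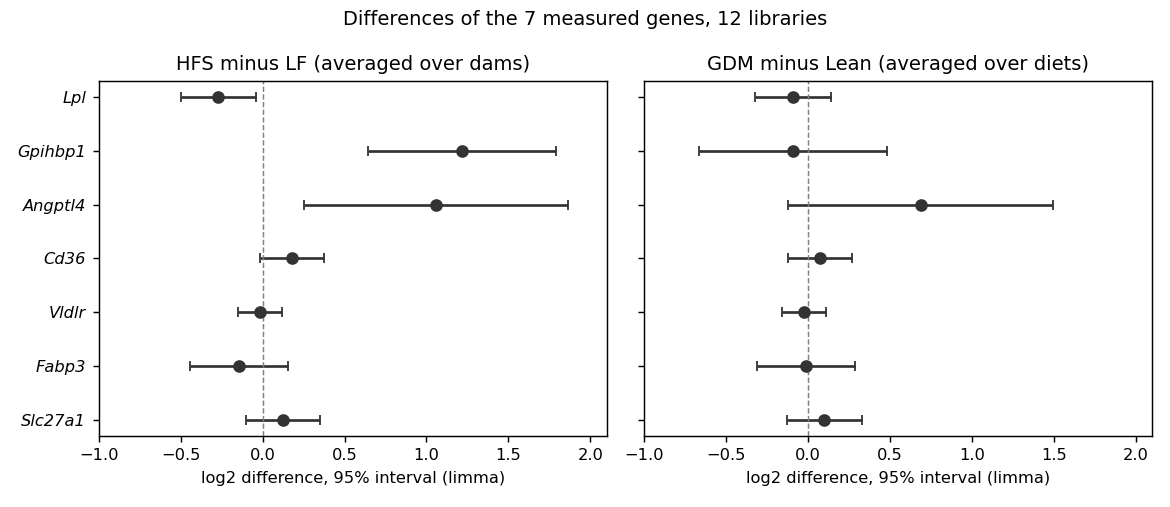
Log2 differences with 95% intervals from limma (horizontal axis) for the 7 genes (rows), HFS minus LF on the left and GDM minus Lean on the right. For diet the intervals of Lpl, Gpihbp1 and Angptl4 lie to one side of 0 before adjustment over all genes, and for the dam all 7 intervals include 0.

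The 7 genes did not vary as a block from heart to heart. Log2 levels of Gpihbp1, Angptl4, Cd36 and Slc27a1 ran together over the 12 libraries, with a Pearson r of 0.854 for Gpihbp1 with Cd36, 0.825 for Angptl4 with Cd36, 0.760 for Angptl4 with Slc27a1, 0.735 for Gpihbp1 with Angptl4 and 0.721 for Cd36 with Slc27a1. Gpihbp1 with Slc27a1 was weaker, at 0.508, below Slc27a1 with Fabp3 (0.582) and with Vldlr (0.535). Cd36 with Fabp3 was at 0.481, so the genes did not split cleanly into sets. Lpl and Fabp3 formed another pair, at 0.832, and Lpl had an r of -0.190 with Gpihbp1, -0.0938 with Angptl4 and 0.102 with Cd36. All are descriptions over the same 12 hearts, which also share groups, scaling and depth.

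The genes whose pattern was most like each member were sought among 8992 models that overlap no other and average 10 or more. For Gpihbp1 they included Rbp7, a retinol binding protein of adipose and endothelial cells (r = 0.949), and Nudt7, a peroxisomal coenzyme A hydrolase (0.874). Rbp7 was at 18.5 to 39.8 in LF and 37.8 to 61.3 in HFS hearts, a log2 difference of 0.85 ± 0.19 (limma adjusted p = 0.389). For Angptl4 they were Slc12a3, a sodium chloride cotransporter (0.905), Lipe, hormone-sensitive lipase (0.905), and Marc1 (0.902). For Cd36 they were Pdk4, the kinase that shuts pyruvate dehydrogenase (0.924), Trim25 (0.865) and Gpihbp1. Pdk4 ranged from 272.9 in GDM-LF 3 to 2017 in GDM-LF 1, and HFS against LF gave 0.75 ± 0.41 (limma adjusted p = 0.679). For Slc27a1 they were the mitochondrial uncoupling protein Ucp3 (0.865), the collagen tail of acetylcholinesterase Colq (0.865) and malonyl-CoA decarboxylase Mlycd (0.862).

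Lpl and Fabp3 had other neighbours, picked in the same way. Closest to Lpl were the translation factor Eif1 (0.968), the complex I subunit Ndufv2 (0.967) and Dbt, of the branched-chain ketoacid dehydrogenase (0.941). Closest to Fabp3 were the complex I subunit Ndufs4 (0.958) and the iron-sulfur assembly protein Isca1 (0.956). Dbt was lower in HFS hearts by a log2 difference of -0.33 ± 0.09 (limma adjusted p = 0.405) and Ndufv2 by -0.19 ± 0.09 (limma adjusted p = 0.620). Closest to Vldlr were Rpusd4 (0.932), Ctbp1 (0.888) and Rtcb (0.884).

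**Figure D3:**
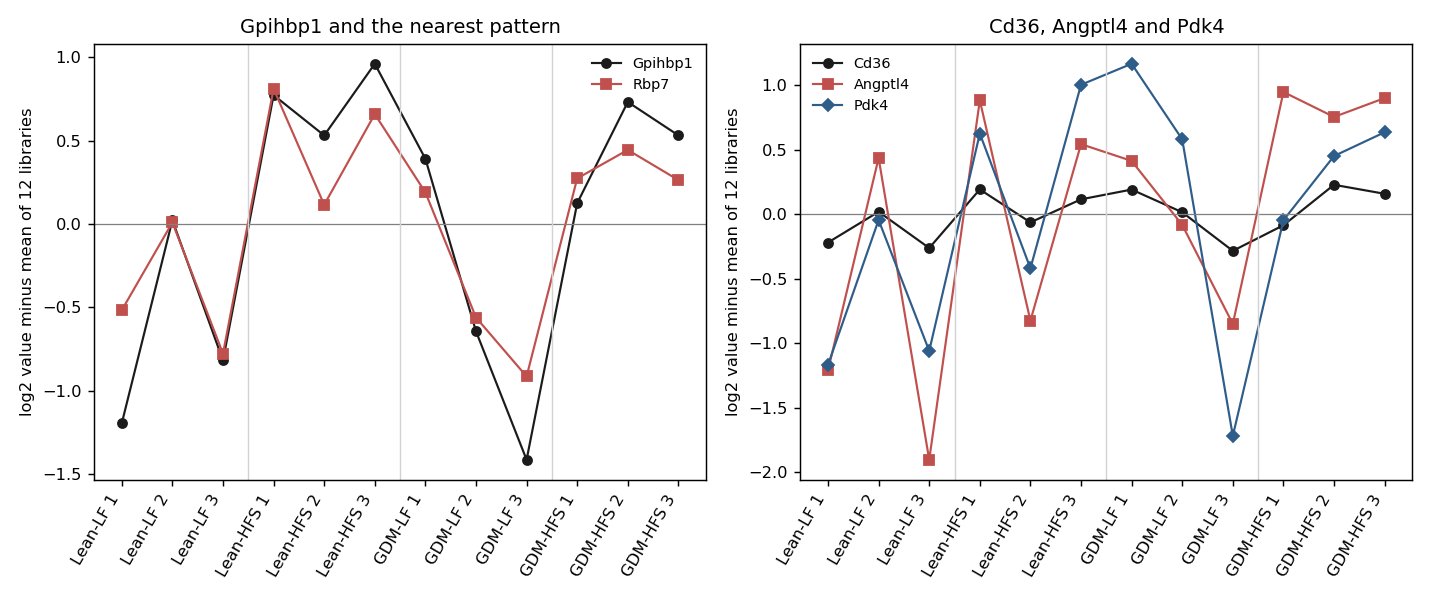
Log2 level minus the mean over the 12 libraries (vertical axis) in each library (horizontal axis, groups divided by grey lines); lines only join the points of a gene. Rbp7 follows Gpihbp1 (r = 0.949) on the left, and Pdk4 follows Cd36 (r = 0.924) on the right, with a wider range. Rbp7 and Pdk4 were picked for this likeness.

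Markers of the cells that make these proteins moved with some of the results. The 12 cardiomyocyte markers were all at lower levels in HFS hearts (median log2 difference -0.22, against 0.01 over all models; 5 of 12 at an unadjusted p under 0.05, 0 called). Among them were Myl2, the ventricular myosin light chain, at -0.36 ± 0.10, cardiac troponin I (Tnni3) at -0.34 ± 0.13 and Myl3 at -0.31 ± 0.13. Their summed level was 220522 to 249658 in Lean-LF, 165190 to 213033 in Lean-HFS, 212429 to 250223 in GDM-LF and 186891 to 224097 in GDM-HFS hearts. Relative to the mean log2 level of these markers, Lpl was at -0.37 ± 0.15 in LF and -0.40 ± 0.07 in HFS hearts, means that lie within an SD of each other. In GDM-LF 3, 1 of the 3 hearts lowest in Lpl and Fabp3, the markers' mean log2 level was 13.52. This was the lowest of the LF hearts (13.6 to 13.8 in the others). It was above that of every HFS heart, both other low hearts included (13.2 in Lean-HFS 2 and 13.3 in GDM-HFS 1). The remaining HFS hearts had marker means of 13.48 to 13.51 and Lpl at 8100 to 9292, against 7600 in GDM-LF 3. Relative to the markers, Lpl ran from -0.63 to -0.24 in LF and from -0.50 to -0.30 in HFS hearts. GDM-LF 3 and GDM-HFS 1 also had the highest atrial sums (12015 and 19558). The range of the cardiomyocyte markers' mean over all hearts was 13.2 to 13.8. The 15 endothelial markers lay mostly in opposite directions with diet under the 2 kinds of dam, none of them called. In Lean-HFS against Lean-LF 13 of 15 were higher (median 0.11, 1 at an unadjusted p under 0.05), and in GDM-HFS against GDM-LF 14 of 15 were lower (median -0.16, 3 at that level), where Gpihbp1 was higher under both. The interaction was negative for 15 of 15 (median -0.25, 4 at that level), the diet average was higher for 6 and lower for 9 (median -0.01), and 13 of 15 were lower in GDM than in Lean hearts (median -0.09, 2 at that level). Their summed level was 5606 to 5969 in Lean-LF, 5788 to 6525 in Lean-HFS, 5436 to 6267 in GDM-LF and 5319 to 5558 in GDM-HFS hearts.

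Adipocyte markers were higher in HFS hearts in 11 of 11 tested genes (median 0.45, 6 at an unadjusted p under 0.05, 0 called). Their summed level was 1107 to 1414 in Lean-LF, 1177 to 1641 in Lean-HFS, 1163 to 1515 in GDM-LF and 1218 to 1737 in GDM-HFS. Of these genes Fabp4, Lipe and Pparg are also made outside fat, Fabp4 by capillary endothelium. They make up most of the sum, with means of 719, 249 and 142 in LF hearts, so the sum says little about fat cells. Adipoq, which encodes adiponectin, was at 0.430 to 27.7, highest in GDM-HFS 3 (27.7) and GDM-LF 3 (17.5). Ucp1, of brown fat, was listed at 0 in 7 libraries, where Gpihbp1 was at 19.97 to 66.1. It was at 11.4 in Lean-HFS 1, 5.61 in Lean-HFS 3, 1.03 in GDM-LF 3, 1.56 in GDM-HFS 2 and 38.0 in GDM-HFS 3. In these libraries Gpihbp1 was at 78.2, 89.1, 17.2, 76.0 and 66.1, in that order. Atrial markers were higher in HFS hearts in 8 of 8 genes (median 1.14, 3 at an unadjusted p under 0.05, 0 called) and in GDM hearts also in 8 of 8 (median 0.89, 2 at that level). Their summed level was 2013 to 3172 in Lean-LF, 3674 to 6644 in Lean-HFS, 1311 to 12015 in GDM-LF and 5754 to 19558 in GDM-HFS. Nppa alone made up 4960 of 6384 in Lean-HFS 2 and 10960 of 19558 in GDM-HFS 1, so this sum leans on 1 gene. By the mean log2 level of the 8 markers, Lean-HFS 2 was the lowest HFS heart (7.13, against 8.02 to 9.79). Of 12 macrophage markers 12 were lower in GDM hearts (median -0.30, 6 at that level), of 7 erythroid markers 7 were lower in HFS hearts (median -0.36, 2 at that level) and 6 in GDM hearts (median -0.37, 5 at that level), and of 9 markers of smooth muscle and pericytes 7 were higher in HFS hearts (median 0.05, 4 at that level), with 4 higher and 5 lower in GDM hearts (4 and 3 at that level). The part of cardiomyocyte, atrial, fat or other cell content in the differences of Lpl, Gpihbp1 and Angptl4 was not tested.

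**Figure D4:**
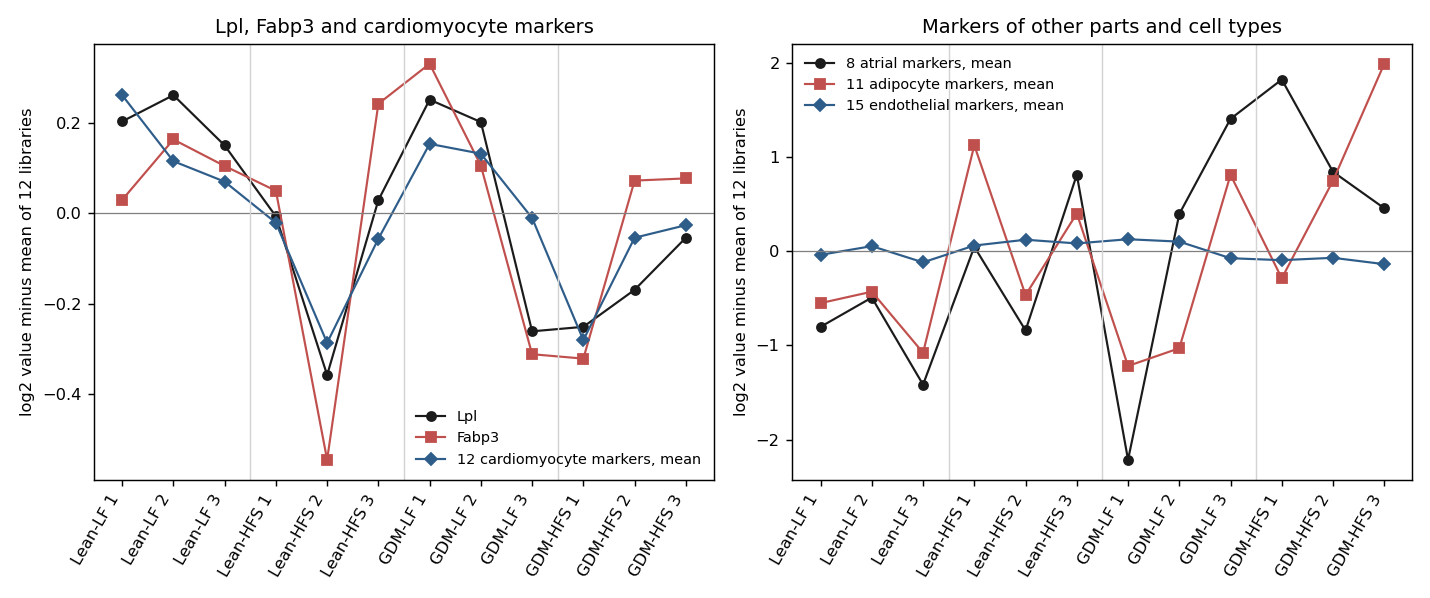
Log2 level minus the mean over the 12 libraries (vertical axis) in each library (horizontal axis); lines only join points of a series. On the left Lpl and Fabp3 dip in Lean-HFS 2 and GDM-HFS 1, where the mean of 12 cardiomyocyte markers is lowest. They also dip in GDM-LF 3, where that mean is the lowest of the LF hearts but above that of every HFS heart. On the right the means of 8 atrial and 11 adipocyte markers vary over a far wider range than that of 15 endothelial markers.

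Other genes of the pathway were grouped by role in lists, and limma called 0 genes in any of the 9 lists for diet, for dam or for their interaction. Counts at an unadjusted p under 0.05 can be read against 7.92% of all models for diet and 11.2% for the dam. Among 17 tested genes that mature, bind or regulate the lipase, 8 were higher and 9 lower in HFS hearts (median log2 difference -0.05, against 0.01 over all models). The smallest p values belonged to Sdc1, the heparan sulfate proteoglycan syndecan 1, at 0.53 ± 0.20 (6.74 in LF and 9.89 in HFS), to the proprotein convertase Pcsk5 at 0.18 ± 0.08, and to the glypican Gpc1 at -0.19 ± 0.08 (limma adjusted p = 0.553, 0.611 and 0.573). For GDM against Lean 7 were higher and 10 lower, with Gpc1 at -0.40 ± 0.08 (limma adjusted p = 0.0706), the lipase sorting receptor Sort1 at 0.27 ± 0.08 (0.242) and Sdc4 at 0.45 ± 0.18 (0.386). The Gpc1 model overlaps that of Ppp1r7, which held 262.6% of its value, so its own level is uncertain.

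All 5 tested lipases of other kinds were higher in HFS hearts (median 0.13), with Lipe at 0.29 ± 0.09 (limma adjusted p = 0.477) and monoglyceride lipase (Mgll) at 0.13 ± 0.07 (limma adjusted p = 0.650). Of 11 lipoprotein receptors and their regulators, 8 were higher and 3 lower (median 0.07). Lsr, the lipolysis-stimulated receptor, was at 0.26 ± 0.10 (limma adjusted p = 0.579). For the dam 0 of these 16 genes had an unadjusted p under 0.05.

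Among 15 other fatty acid transport and binding proteins 6 were higher and 9 lower in HFS hearts (median -0.04). Caveolin 2 (Cav2) was at -0.18 ± 0.07, Got2, the mitochondrial aspartate aminotransferase also described as a membrane fatty acid binding protein, at -0.20 ± 0.09, and Fabp5 at -0.23 ± 0.11 (limma adjusted p = 0.580, 0.611 and 0.628). For the dam the smallest p was that of Slc27a2 at -2.75 ± 1.15 (limma adjusted p = 0.401), from mean levels of 4.07 in Lean and 1.05 in GDM hearts. Of 10 acyl-CoA synthetases, which trap fatty acids in the cell, 4 were higher and 6 lower with diet (median -0.05), with Acsl4 at 0.20 ± 0.07, Acss1 at -0.22 ± 0.10 and Acsl3 at -0.22 ± 0.10 (limma adjusted p = 0.542, 0.621 and 0.621). Of 14 genes for the acylation and vesicle traffic of CD36, 5 were higher and 9 lower (median -0.03), and 0 had an unadjusted p under 0.05.

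In the endothelial control of fatty acid transfer, 5 of 12 genes were higher and 7 lower in HFS hearts (median -0.10). The apelin receptor Aplnr was at -0.44 ± 0.13 (limma adjusted p = 0.477), Pparg at 0.34 ± 0.12 (limma adjusted p = 0.536) and the growth factor Vegfb, which acts on endothelial fatty acid transporters, at -0.22 ± 0.10 (limma adjusted p = 0.621). For GDM against Lean, Vegfb was at -0.28 ± 0.10 and apelin (Apln) at 0.43 ± 0.18 (limma adjusted p = 0.336 and 0.403). Of 12 PPAR receptors and coregulators, the nuclear receptors that sense fatty acids and their partners, 7 were higher and 5 lower with diet (median 0.01), and for the dam Ppara was at 0.27 ± 0.11 (limma adjusted p = 0.396).

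PPAR targets outside the 8 genes were mostly higher in HFS hearts, none of them past the test. Of 22, 18 were higher in HFS hearts (median 0.09), with 3 at an unadjusted p under 0.05. Among these were the dienoyl-CoA reductase Decr1 at 0.34 ± 0.12 and the thioesterase Acot1 at 1.71 ± 0.79 (limma adjusted p = 0.535 and 0.628). For GDM against Lean 9 were higher and 13 lower, 0 of them at that level. Acot1 stood at mean levels of only 0.630 in LF and 1.74 in HFS hearts. Without Lean-HFS 1 the count was 11 of 22 (median 0.01), without GDM-LF 3 it was 12 of 22 (median 0.03), and without Lean-HFS 2 it was 22 of 22 (median 0.16). Within dams, 12 of 22 were higher in Lean-HFS than in Lean-LF (median 0.02). Between GDM-HFS and GDM-LF 22 of 22 were higher (median 0.21), and 12 of 22 without GDM-LF 3 (median 0.04). The library GDM-LF 3, which moved both counts, was also lowest of the 12 for Gpihbp1 and Cd36.

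**Figure D5:**
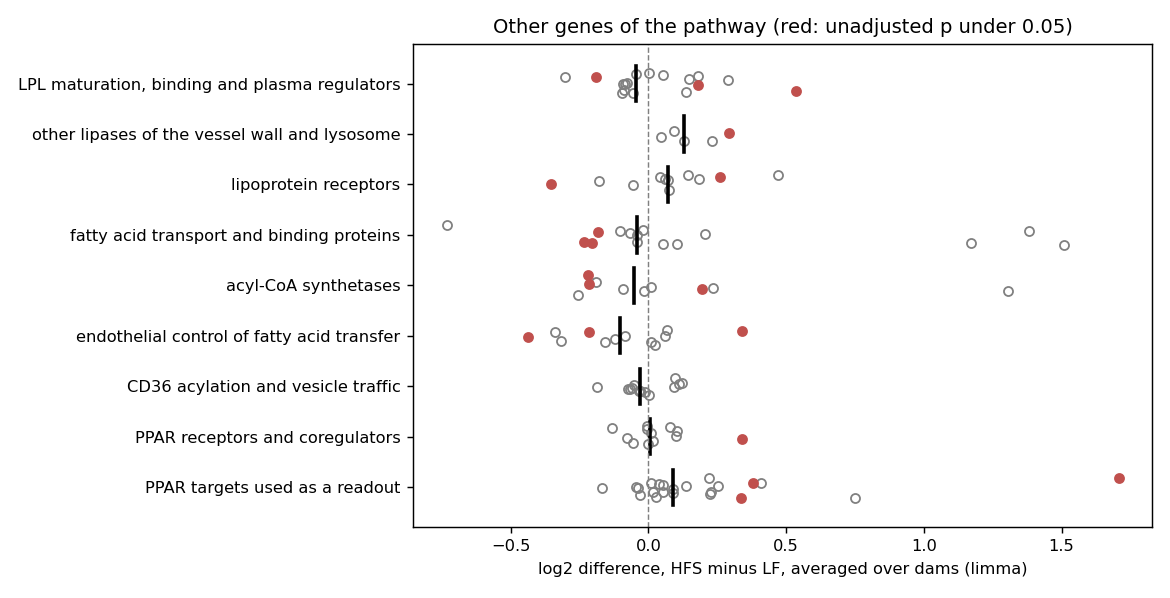
Log2 difference between HFS and LF libraries averaged over dams (horizontal axis) for each tested gene of the 9 lists (rows). Filled red points have an unadjusted limma p under 0.05, black bars are list medians, and 0 genes passed the adjustment over all models.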

How the data were processed

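RNA sequencing values of 12 rat hearts were used. Per the labels' protocols, ribosomal RNA was depleted, directional libraries were read in pairs of 100 bases, and STAR 2.5.1b aligned reads to Rnor_6.0. HOMER 4.9, edgeR, FastQC and Trim Galore are listed, without their role, in the submitters' processing notes. The deposited table is named FPKM, and the tests were planned for that unit. Its values are a normalised read signal instead, as deposited by the authors: in each library 100% of values were whole multiples of 1 step within 0.1 read. The sources used here do not say whether counting used strand, so overlapping models can share reads.

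Values were divided by median-of-ratios factors. Models with a mean of at least 0.5 were tested with limma 3.58.1 (R 4.3.3, checked on simulated data) on log2(value + 0.1), with 4 group means, a variance trend, 8 residual degrees of freedom, two-sided p-values, Benjamini-Hochberg adjustment over all 12983 models and a threshold of 0.05. Log2 differences are of means on this scale, and for low or widely spread genes they can lie above or below the log2 ratio of mean levels. Left as deposited, the median of all models was 0.11 higher in GDM and 0.11 higher in HFS libraries. Alternatives were other scalings, pseudocounts and filters, edgeR 4.0.16 and DESeq2 1.42.0 on recovered reads, a replicate block, fits of 2 groups and leaving out each library. Both count-based tools treat recovered reads as independent, which the reads of a pair may not be.

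Named genes were the 8 listed, the 3 with the smallest p per list and averaged contrast, and the 3 with the highest correlation to each member; some of these are not reported here. The genes and lists were chosen with earlier results of these data known. Promoter sequences are RefSeq's (GRCr8). Motif searches used Python 3.11.15.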

Additional observations from a re-analysis of the deposited data

How the results depend on the processing

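Of the 7 genes 0 were called in any of the 7 contrasts under any alternative, with 12 libraries or 11. The replicate block left all 7 member counts at 0 as well. The 18 correlations of same-numbered deviations ran from -0.0985 to 0.115, 1 of them over 0.1. Those of Lean-LF with Lean-HFS were all positive (0.0751, 0.0633 and 0.115). Replicate numbers need not follow litters, so shared litters cannot be judged from these values. For single genes, 25 differences were refitted under the alternatives. Of these refits 30 reversed the sign and 453 did not, and none that reversed had been called. The differences that reversed in at least 1 refit are named below. With values as deposited, GDM against Lean turned to 0.017 for Lpl, 0.018 for Gpihbp1, 0.087 for Vldlr and 0.095 for Fabp3, and HFS against LF to 0.081 for Vldlr, where all models shifted by 0.11. Quantile normalization gave 0.072 for Fabp3 by dam. The Angptl4 interaction (-0.05) became 0.013 with quantile normalization, 0.083 with edgeR and 0.050 with DESeq2.

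Leaving out 1 library, GDM against Lean ran from -0.33 to 0.12 for Gpihbp1, from -0.066 to 0.027 for Vldlr, from -0.13 to 0.073 for Fabp3 and from -0.010 to 0.17 for Slc27a1. HFS against LF ran from -0.067 to 0.026 for Vldlr, and GDM-HFS against GDM-LF from -0.0028 to 0.23 for Cd36. The interaction ran from -0.068 to 0.19 for Lpl, from -0.83 to 0.072 for Gpihbp1 and from -0.71 to 0.45 for Angptl4. The cause was not tested.

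Numbers of called models moved more. For the dam 8 calls became 13 as deposited, 154 with DESeq2 and 6 to 20 without a library; for diet 0 became 31 with DESeq2. GDM-LF against Lean-LF had 17 with DESeq2 and 2 to 6 without a library. GDM-HFS against Lean-HFS had 47 with DESeq2, 1 with only those groups and 2 to 4 without a library. The diet contrast had 9 with DESeq2, 1 with the block, 1 with only those groups and 0 to 1 without a library among GDM, and 0 to 3 without a library among Lean offspring. List counts were repeated under these settings after seeing the data. As deposited, 15 of 17 lipase regulators, 10 of 15 transport proteins, 13 of 14 CD36 traffic genes and 11 of 12 PPAR receptors and coregulators were higher in HFS hearts. Without Lean-HFS 2, 3 of 12 genes of endothelial control were higher, without GDM-LF 1, 3 of 14 of CD36 traffic, and without Lean-HFS 3, 3 of 12 PPAR receptors and coregulators. Depth limits Angptl4 most, at 20 reads in its lowest library.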
